A study of Mus musculus with 9 samples.

Results

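Sodium-proton exchangers of the Slc9a family and the NHERF scaffold proteins were followed in MC38 tumours after knockdown of Gad1. The family was taken as the 8 genes Slc9a2, Slc9a4, Slc9a5, Slc9a7, Slc9a8, Slc9a9, Slc9a3r1 and Slc9a3r2, each matched by its symbol in the files of all 9 libraries, out of 17134 listed genes. The family was picked because Slc9a4 and Slc9a2 were among the largest rises against the control, so their values against the control are a description without a test. MC38 cells come from a mouse colon adenocarcinoma. They stably expressed the Gad1 shRNA shA, the Gad1 shRNA shB or a non-targeting control shRNA (NTC), delivered by lentivirus with puromycin selection, and grew under the skin of C57BL/6 mice until day 20. There were 3 RNA-seq libraries in each group. The sources used here give neither the age and sex of the mice nor which tumours shared a mouse. The p-values therefore measure only how much these libraries vary. All groups share the lentiviral vector system and the selection, and each tumour also holds cells of the mouse.

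Exchangers of this family move sodium into a compartment or the cell and protons the other way, and so set the pH on either side of the membrane. Some members sit in the plasma membrane, where in gut and kidney epithelium they take up sodium and extrude acid. Others act in the Golgi apparatus and endosomes, where they counter the proton pump. NHERF proteins carry PDZ domains that bind the tails of transporters, among them the exchanger NHE3 and the chloride channel CFTR, and tie them through ezrin, radixin and moesin to the actin cytoskeleton.

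The values are reads per gene divided by 1 factor per library, called normalized reads here. The libraries held 18373748 to 24918174 assigned reads. Gad1, the targeted gene, averaged 28.8 ± 19.1 normalized reads in shA tumours, 29.2 ± 11.3 in shB tumours and 291 ± 31.8 in NTC tumours (SD, n = 3 each). It fell by 3.43 on the log2 scale with both shRNAs against NTC (SE 0.41, adjusted p = 0.000643 by limma), and the knockdown and control libraries did not overlap. Among the epithelial markers Epcam, Cdh1 and Krt8 were high in all groups, with Epcam at 8891 ± 2085 in shA, 7554 ± 2145 in shB and 9883 ± 1088 normalized reads in NTC tumours (SD, n = 3 each). The 13 intestinal epithelial markers summed to 41470 to 66360 in shA, 39461 to 60739 in shB and 35153 to 42763 normalized reads in NTC tumours, of which Cdh1, Epcam and Krt8 made up most. Lgals4 was low in every library. Cdx1, below the filter and not tested, had 17.1 to 95.8 normalized reads in NTC libraries and at most 4.67 in knockdown libraries, with 2 shA libraries at 0. Of the 12 tested, 2 passed for both shRNAs against NTC, beside 25.0% among all genes tested. With single libraries left out, that count ran from 1 without shB replicate 2 to 7 without shB replicate 1. Cdh1, which encodes E-cadherin, rose by 0.57 on the log2 scale (adjusted p = 0.00233 by limma), and Cdx2, an intestinal transcription factor, averaged 99.2 ± 72.0 in shA, 89.6 ± 35.7 in shB and 368 ± 161 normalized reads in NTC tumours (SD, n = 3 each) and fell by 2.14 (adjusted p = 0.0280 by limma). Cdx2 passed with neither shRNA alone, while Krt20 and Vil1 were called higher in shB alone against NTC. The first replicates of shA and NTC stood apart in genes at 0, with 653 in shA replicate 1, against 25 to 115 in the other knockdown libraries, and 422 in NTC replicate 1, against 155 and 109 in NTC replicates 2 and 3. In reads per gene, replicate 1 stood apart in every group, shB included. The chi-square per degree of freedom was 143 and 142 for shA pairs with replicate 1, against 17.5 for the pair without it. It was 91.6 and 107 against 9.77 in shB, and 22.9 and 28.3 against 7.81 in NTC.

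Slc9a2 and Slc9a4 are related in sequence, which bears on how far their reads can be told apart. Their coding sequences, built from the GENCODE M21 annotation of GRCm38, matched at 67.5% of 2340 aligned bases. That share alone does not measure relatedness, since the exchanger Slc9a5 and the scaffold gene Slc9a3r1 matched at 74.3% of 1065. The longest run that Slc9a2 and Slc9a4 share is 38 bases. It is shown in capitals within 90 bases of each coding sequence (bases 1049 to 1138 of Slc9a2 and 1022 to 1111 of Slc9a4). A read lying wholly within the run would fit both genes, while no read longer than 38 bases would match both coding sequences exactly. Untranslated exons were not compared.
Slc9a2: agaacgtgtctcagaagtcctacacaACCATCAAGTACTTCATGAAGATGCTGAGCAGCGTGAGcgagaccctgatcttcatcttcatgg
Slc9a4: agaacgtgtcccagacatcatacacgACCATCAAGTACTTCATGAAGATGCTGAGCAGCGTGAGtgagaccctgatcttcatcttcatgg
The scaffold genes Slc9a3r1 and Slc9a3r2 share no run longer than 14 bases, capitals again, within bases 473 to 562 and 59 to 148 of their coding sequences.
Slc9a3r1: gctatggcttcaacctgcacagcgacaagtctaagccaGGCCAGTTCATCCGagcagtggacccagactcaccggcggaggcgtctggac
Slc9a3r2: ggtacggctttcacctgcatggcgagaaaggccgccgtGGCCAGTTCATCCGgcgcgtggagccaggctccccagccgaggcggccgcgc
Between the other pairs of exchangers the longest shared run was 20 bases, in Slc9a7 and Slc9a9. The sources used here give neither the read length nor the treatment of reads that fit several genes.

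Slc9a4 encodes NHE4, an exchanger of the basolateral membrane, best known from acid-secreting cells of the stomach. It had 80.6, 41.1 and 99.2 normalized reads in shA replicates 1 to 3, 87.1, 278 and 191 in shB replicates 1 to 3, and 0, 1.00 and 3.84 in NTC replicates 1 to 3. Every knockdown library lay far above every control library, and the lowest of them was shA replicate 2. The means were 73.6 ± 29.6 in shA, 185 ± 95.6 in shB and 1.61 ± 1.99 in NTC tumours (SD, n = 3 each). Differences of mean log2(value + 0.5) were 5.55 for shA against NTC, 6.82 for shB against NTC and 6.18 for both shRNAs against NTC. For both shRNAs it ran between 5.40 without NTC replicate 1 and 6.96 without NTC replicate 3, and was 4.14 with 5 added in place of 0.5. The knockdown libraries held 792 reads of the gene in all, against 5 in the control libraries. Scaled by the library factors, that is a 74.0-fold ratio with a 95% interval of 31.6 to 229. The interval covers counting error only, not the spread between tumours, and is no test, because the gene was chosen on this contrast. The opposite-strand genes Gm35801 and Gm37435 overlap 16.9% of the Slc9a4 exons. No source used here gives the strand setting of the counting, so reads of those genes and of Slc9a4 cannot be told apart there.

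Slc9a2 encodes NHE2, an exchanger of the apical membrane of gut and kidney epithelium. It had 18.5, 30.8 and 135 normalized reads in shA replicates 1 to 3, 83.6, 284 and 267 in shB replicates 1 to 3, and 0, 4.02 and 1.92 in NTC replicates 1 to 3. Again no knockdown library reached down to a control library, and within shA 1 library was well above the others. The means were 61.5 ± 64.1 in shA, 211 ± 111 in shB and 1.98 ± 2.01 in NTC tumours (SD, n = 3 each). The log2 differences were 4.62 for shA against NTC, 6.72 for shB against NTC and 5.67 for both shRNAs against NTC. For both shRNAs it ran between 4.76 without NTC replicate 1 and 6.35 without NTC replicate 2, and was 3.84 with 5 added in place of 0.5. The summed reads were 837 in the knockdown libraries and 6 in the control libraries, a 65.2-fold ratio after scaling. Its counting interval of 29.8 to 178 likewise leaves out the spread between tumours and is no test. Both genes passed the low-value filter through their knockdown libraries alone.

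**Figure D1:**
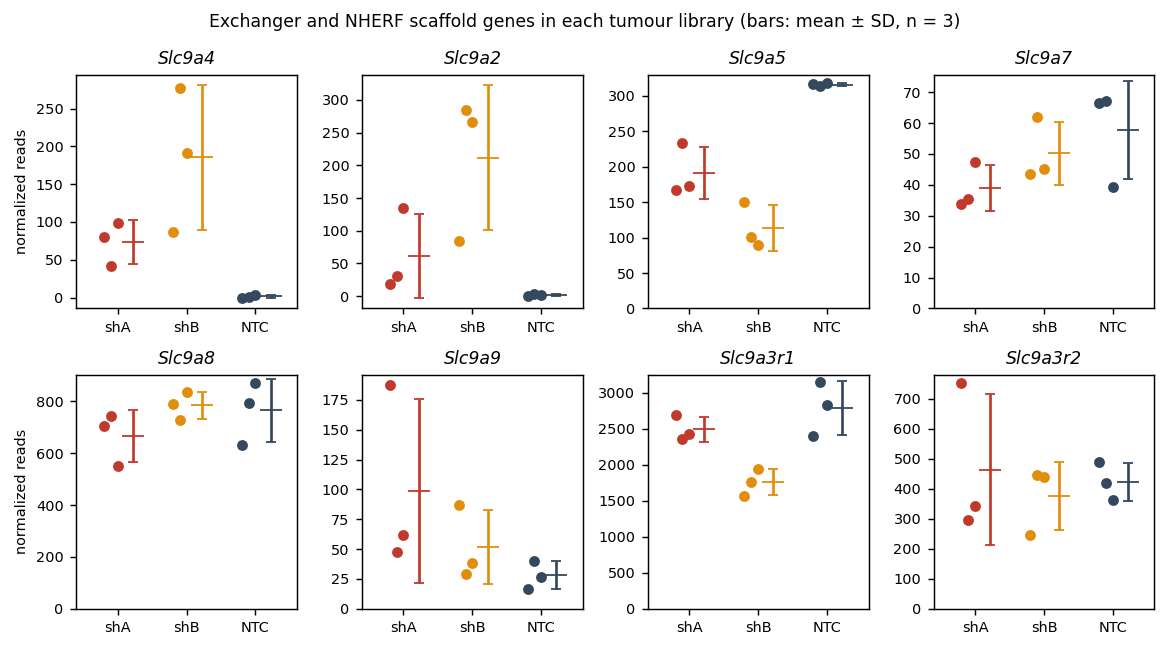
Normalized reads of the 8 genes (vertical axes, each with its own range) in the shA, shB and NTC libraries (horizontal axis); points are libraries and bars are the mean ± SD of 3. Slc9a4 and Slc9a2 lie between 18.5 and 284 in the knockdown libraries and at or below 4.02 in NTC, and Slc9a5 runs the other way.

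The shRNAs were also set against each other, a contrast that played no part in choosing the genes. Slc9a2 was lower in shA than in shB tumours by a log2 difference of -2.10, with a 95% interval of -4.24 to 0.04 and an adjusted p of 0.680 (limma). Slc9a4 differed by -1.27, with an interval of -3.01 to 0.47 and the same adjusted p of 0.680 (limma). For each gene the shA and shB libraries overlapped, and these intervals leave room for anything up to a large difference between the shRNAs. Across all tested genes 0% passed in this contrast by limma (0 of 14600), with 1010 genes at an unadjusted p under 0.05; edgeR called 0 and DESeq2 called 24.

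Slc9a5 encodes NHE5, an exchanger best known from brain, where it cycles between recycling endosomes and the plasma membrane. It had 167, 233 and 173 normalized reads in shA replicates 1 to 3, 150, 100.2 and 90.1 in shB replicates 1 to 3, and 317, 313 and 318 in NTC replicates 1 to 3. The 3 groups did not overlap, with shB lowest, shA between and NTC highest. Slc9a5 fell by 1.13 on the log2 scale with both shRNAs against NTC, 2.18-fold lower (SE 0.21, adjusted p = 0.00402 by limma). With shB alone it fell by 1.51, 2.85-fold lower (SE 0.24, adjusted p = 0.00277 by limma). With shA alone the log2 difference was -0.74 and missed the threshold (adjusted p = 0.0610 by limma). That value passed the threshold under other settings, at an adjusted p of 0.0204 by DESeq2, and by limma at 0.0219 without shB replicate 1, 0.0346 with only the compared groups fitted and 0.0466 when all first replicates were left out. Between the shRNAs the difference was 0.77, with an interval of 0.23 to 1.30, all shA libraries being higher, and it did not pass (adjusted p = 0.680 by limma). Across all 14600 tested genes 25.0% passed for both shRNAs against NTC, 15.5% higher and 9.49% lower. For shA against NTC 17.0% passed, 11.4% higher and 5.59% lower, and for shB against NTC 20.4% passed, 13.4% higher and 7.02% lower. Nothing is read from the members against these shares, since the same contrast chose the family.

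The exchangers of internal membranes showed no called change. Slc9a7 encodes NHE7 of the trans-Golgi network and averaged 38.9 ± 7.50 normalized reads in shA, 50.2 ± 10.2 in shB and 57.7 ± 15.9 in NTC tumours (SD, n = 3 each). Its log2 difference for both shRNAs was -0.36, with a 95% interval of -1.03 to 0.31 and an adjusted p of 0.415 (limma). Slc9a8 encodes NHE8 of the Golgi apparatus and, in gut and kidney, the apical membrane. It averaged 666 ± 101 in shA, 785 ± 53.5 in shB and 765 ± 121 normalized reads in NTC tumours (SD, n = 3 each), with a log2 difference of -0.08, an interval of -0.40 to 0.25 and an adjusted p of 0.735 (limma). It was the steadiest of the 8 genes, its highest library being 1.58 times its lowest.

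Slc9a9 encodes NHE9 of late endosomes. It had 187, 47.7 and 61.5 normalized reads in shA replicates 1 to 3, 87.1, 29.5 and 38.3 in shB replicates 1 to 3, and 16.9, 40.2 and 26.9 in NTC replicates 1 to 3. The shA libraries lay above the NTC libraries, while shB overlapped NTC. Within both knockdown groups replicate 1 was the highest. The log2 difference was 1.62 for shA (SE 0.60, adjusted p = 0.0926 by limma), 0.80 for shB (adjusted p = 0.398) and 1.21 for both (interval 0.04 to 2.38, adjusted p = 0.120), so no comparison passed, although DESeq2 called shA at an adjusted p of 0.0252. Without shA replicate 1 the shA value was 1.03. That library had the highest endothelial marker sum, 10916 normalized reads over 7 genes, against 2861 to 3041 in the other shA libraries, 2810 to 3901 in shB and 2393 to 2802 in NTC libraries. It also had the highest T cell, natural killer cell and intestinal epithelial marker sums. Their part in the Slc9a9 values was not tested.

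Of the scaffold genes, Slc9a3r1 was lower in shB tumours. Slc9a3r1 encodes NHERF1, also called EBP50, the main PDZ scaffold beneath the apical membrane of epithelia. It had 2696, 2361 and 2426 normalized reads in shA replicates 1 to 3, 1571, 1768 and 1940 in shB replicates 1 to 3, and 2401, 3151 and 2836 in NTC replicates 1 to 3. All shB libraries lay below all others, and shA overlapped NTC. It fell by 0.66 on the log2 scale in shB against NTC, 1.58-fold lower (SE 0.13, adjusted p = 0.00771 by limma), and this call held under all 22 alternatives. In shA the log2 difference was -0.16, with an interval of -0.46 to 0.14 and an adjusted p of 0.434 (limma), or -0.32 and 0.0301 when all first replicates were left out. For both shRNAs it fell by 0.41, 1.33-fold lower (SE 0.12, adjusted p = 0.0288 by limma), a call lost under 7 of 21 alternatives, with an adjusted p of 0.148 without NTC replicate 2, 0.108 without NTC replicate 3, and 0.0544 to 0.0586 without shA replicate 2, shA replicate 3 or shB replicate 2. The shRNAs differed by 0.51, with an interval of 0.20 to 0.81, and this did not pass (adjusted p = 0.680 by limma).

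Slc9a3r2 encodes NHERF2, a PDZ scaffold that links NHE3 to regulatory kinases. It averaged 464 ± 251 normalized reads in shA, 377 ± 114 in shB and 424 ± 63.6 in NTC tumours (SD, n = 3 each). The wide spread in shA came from replicate 1, at 753 against 295 and 343 in the other shA libraries. The log2 difference for both shRNAs was -0.10, with an interval of -0.79 to 0.59 and an adjusted p of 0.845 (limma), and its sign turned in some alternatives. The endothelial, T cell, natural killer cell and intestinal epithelial marker sums were likewise all highest in shA replicate 1, and their part in the value was not tested.

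**Figure D2:**
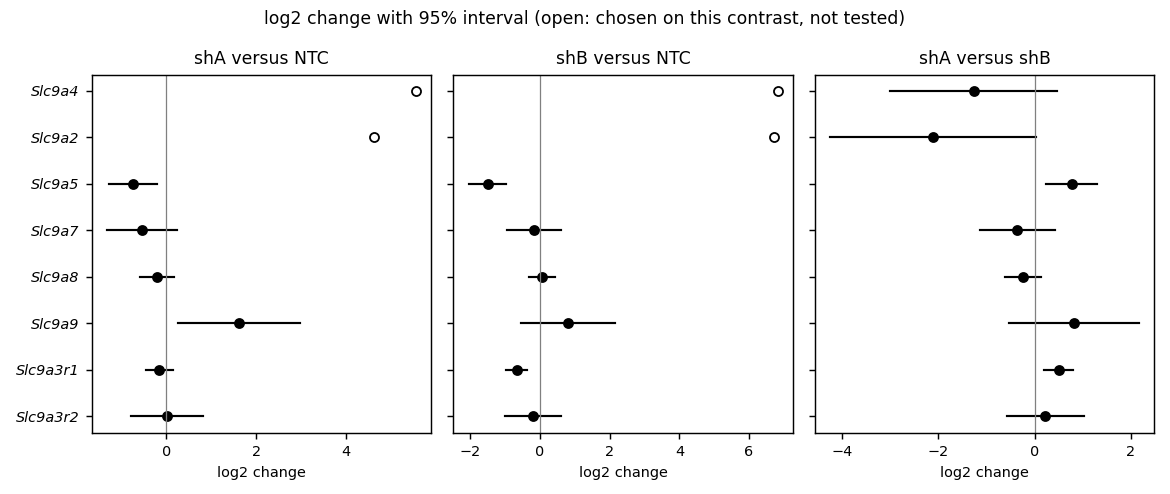
log2 change of each gene (horizontal axis) for shA versus NTC, shB versus NTC and shA versus shB, with 95% intervals; open points are Slc9a4 and Slc9a2 against NTC, which were not tested. Slc9a5 and Slc9a3r1 lie left of 0 in shB versus NTC, at -1.51 and -0.66.

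Levels were compared between genes per kilobase of exon. In shA tumours Slc9a4 was at 18.6 ± 7.48 and Slc9a2 at 9.86 ± 10.3 normalized reads per kilobase (SD, n = 3 each), both overlapping Slc9a7 at 13.1 ± 2.53 and below Slc9a5 at 54.5 ± 10.4. In shB tumours Slc9a4 stood at 46.8 ± 24.1 and Slc9a2 at 33.9 ± 17.8 per kilobase (SD, n = 3 each), ranges that overlapped that of Slc9a5 at 32.4 ± 9.13. In NTC tumours Slc9a4 and Slc9a2 closed the order, at 0.41 ± 0.50 and 0.32 ± 0.32 per kilobase (SD, n = 3 each), and their ranges overlapped each other. The NTC order above them began with Slc9a3r1 at 1452 ± 196 per kilobase, followed by Slc9a3r2 at 176 ± 26.4, Slc9a8 at 169 ± 26.7, Slc9a5 at 90.3 ± 0.66, Slc9a7 at 19.5 ± 5.37 and Slc9a9 at 8.07 ± 3.36 (SD, n = 3 each). In that order Slc9a3r2 and Slc9a8 overlapped, and the other neighbours down to Slc9a4 did not. In the knockdown tumours Slc9a4 and Slc9a2 thus reached levels found for other exchangers of the family, under that of Slc9a8 at 147 ± 22.4 in shA and 174 ± 11.8 in shB tumours.

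**Figure D3:**
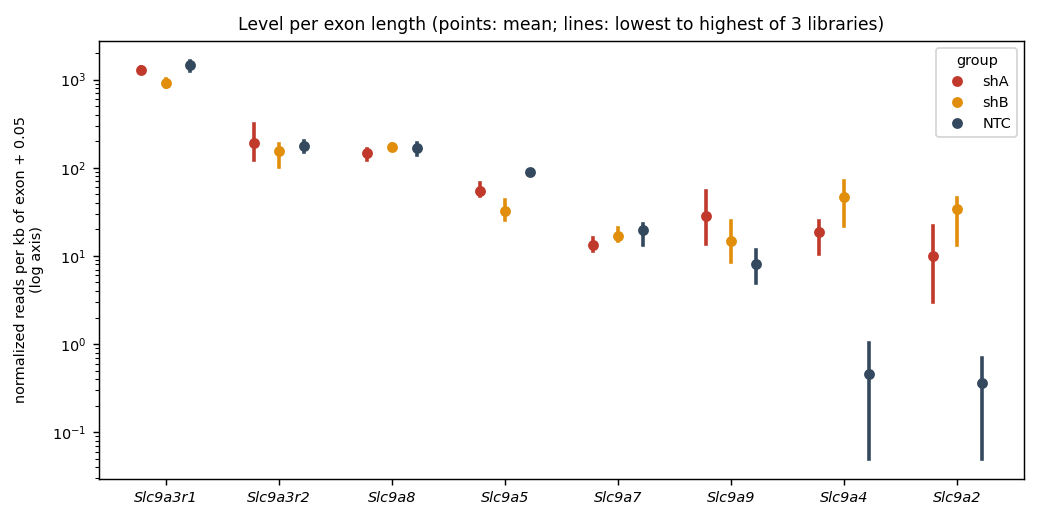
Normalized reads per kilobase of exon plus 0.05 (log axis) of the 8 genes in shA, shB and NTC tumours; points are means and lines run from the lowest to the highest of 3 libraries. Slc9a4 and Slc9a2 span 9.86 to 46.8 on average in knockdown tumours and stay below 1 in NTC.

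Slc9a3, the apical NHE3 that NHERF proteins hold in gut, was below the filter and not tested. It had 0 to 5.61 normalized reads in shA, 8.84 to 9.58 in shB and 0.96 to 2.01 in NTC libraries.

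Of 10 tested genes for proteins that bind exchangers or NHERF scaffolds, 2 rose and 1 fell for both shRNAs against NTC, beside 25.0% called among all genes tested, a similar share. They had a median log2 difference of -0.02 beside -0.03 over all genes tested. Msn encodes moesin, which links NHERF1 to actin, and had 5063, 3932 and 3276 normalized reads in shA, 4492, 3134 and 3199 in shB, and 2003, 2827 and 2562 in NTC replicates 1 to 3. It rose by 0.63 on the log2 scale (adjusted p = 0.0274 by limma). Rdx, which encodes the related radixin, fell by 0.36 (adjusted p = 0.0496 by limma). Tesc encodes tescalcin, a calcium-binding protein, and rose by 2.56 (adjusted p = 0.0418 by limma), with 161, 15.9 and 45.9 normalized reads in shA, 6.97, 54.0 and 34.9 in shB, and 6.76, 6.02 and 3.84 in NTC replicates 1 to 3. Sgk1, a kinase that raises NHE3 activity, had a log2 difference of 0.33 (adjusted p = 0.148 by limma). The called partners were 0 without NTC replicate 1 or 3, 1 without NTC replicate 2, shA replicate 3, shB replicate 2 or shB replicate 3, and 7 when all first replicates were left out. Rdx and Tesc each kept the call in 2 of the 9 fits that left out a library, and Msn in 7. For shA alone against NTC only Msn and Tesc passed, and for shB alone 0 of the 10 partners did.

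Among 16 tested genes for other membrane pH regulators, 5 rose and 2 fell for both shRNAs against NTC, beside 15.5% higher and 9.49% lower among all genes tested. They had a median log2 difference of 0.63 beside -0.03 over all genes tested. Slc16a3 encodes MCT4, which exports lactate together with a proton. It averaged 4218 ± 509 normalized reads in shA, 2624 ± 308 in shB and 8228 ± 710 in NTC tumours (SD, n = 3 each), and fell by 1.31 on the log2 scale (adjusted p = 0.000272 by limma). Slc4a3, an anion exchanger that removes bicarbonate from the cell, fell by 0.80 (adjusted p = 0.0107 by limma). Slc4a4 encodes the sodium bicarbonate cotransporter NBCe1 and averaged 36.8 ± 18.5 in shA, 50.2 ± 14.6 in shB and 9.91 ± 2.80 normalized reads in NTC tumours (SD, n = 3 each), a rise of 2.02 (adjusted p = 0.00685 by limma). Hvcn1 encodes the voltage-gated proton channel best known from phagocytes and B cells, and rose by 1.47 (adjusted p = 0.00662 by limma). Exons of the opposite-strand gene Tctn1 overlap 52.5% of its own, and their reads cannot be told apart. The carbonic anhydrases Car4 and Car12 and the monocarboxylate transporter Slc16a7, named after their values were seen, also rose, by 1.75, 2.10 and 1.41 on the log2 scale (adjusted p = 0.0430, 0.0172 and 0.0265 by limma). Car4 had 1316 normalized reads in shA replicate 1, against 191 to 259 in the other knockdown libraries. Car12 in shA replicate 1, at 20.7, lay below NTC replicates 2 and 3, at 30.1 and 24.9. Car12 did not pass for shA alone, nor did Car4, Slc16a7 and Hvcn1 for shB alone. The number called was 4 without NTC replicate 1, where Slc4a3 had an adjusted p of 0.0626 by limma, and 11 when all first replicates were left out.

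**Figure D4:**
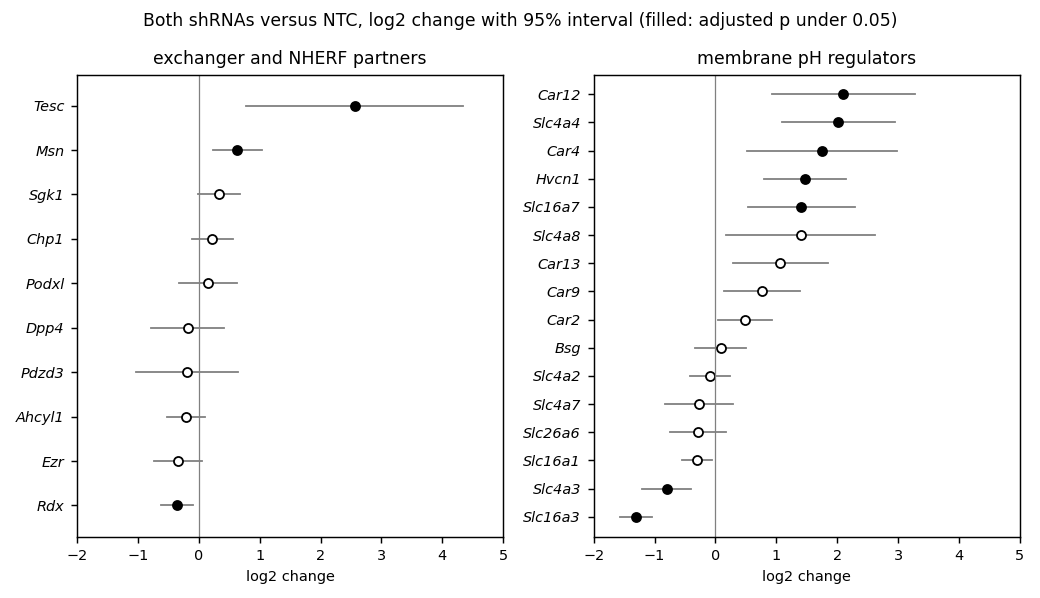
log2 change for both shRNAs versus NTC (horizontal axis) with 95% intervals in partners of exchangers and NHERF scaffolds and in membrane pH regulators; filled points have an adjusted p under 0.05. Membrane pH regulators run between Slc16a3 at -1.31 and Car12 at 2.10, partners reach 2.56 in Tesc, and 3 of the 10 partners are filled.

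Slc9a4 and Slc9a2 lie next to each other on mouse chromosome 1, beside a cluster of interleukin receptor genes. The 6 protein-coding genes nearest on the Slc9a4 side of the pair are all receptors for interleukins of the IL-1 family, and 4 of the 6 rose for both shRNAs against NTC, while 0 of the 3 listed genes beyond Slc9a2 did (limma), beside 15.5% higher among all genes tested. Il18r1, a chain of the interleukin-18 receptor, had 169, 143 and 136 normalized reads in shA, 219, 139 and 141 in shB, and 1.13, 11.0 and 30.7 in NTC replicates 1 to 3. It rose by 4.22 on the log2 scale (SE 0.74, adjusted p = 0.00310 by limma), and the knockdown and control libraries did not overlap. Its partner chain Il18rap, the direct neighbour of Slc9a4, rose by 2.49 (adjusted p = 0.0232 by limma), although shB replicate 2 at 42.2 lay below NTC replicate 3 at 47.0. Il1rl1, the receptor for interleukin-33, rose by 1.86 (adjusted p = 0.00310) and Il1rl2, the receptor for interleukin-36, by 1.67 (adjusted p = 0.0215), both by limma. Il1r1, the signalling receptor for interleukin-1, and its decoy Il1r2 had log2 differences of 1.33 and 1.36 and missed the threshold (adjusted p = 0.0753 and 0.0547 by limma). Without NTC replicate 1 the called receptors were 2 of 6, Il18rap and Il1rl2 being lost, and without shA replicate 1 they were 6 of 6. Il18rap also missed the threshold without NTC replicate 2, and Il1rl2 without NTC replicate 3. Against NTC, 5 of the 6 receptors were called for shA alone, all but Il1r1, and 2 for shB alone, Il18r1 and Il1rl1.

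On the other side, Mfsd9, a membrane transporter-like protein, had a log2 difference of -0.22 (interval -1.08 to 0.63, adjusted p = 0.704 by limma). Mrps9, a protein of the mitochondrial ribosome, had 0.35 (interval 0.00 to 0.69, adjusted p = 0.131 by limma, 0.0181 without shB replicate 1), and Tgfbrap1 had -0.09 (interval -0.42 to 0.24, adjusted p = 0.696 by limma). Between the shRNAs no receptor gene of the cluster passed the test.

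**Figure D5:**
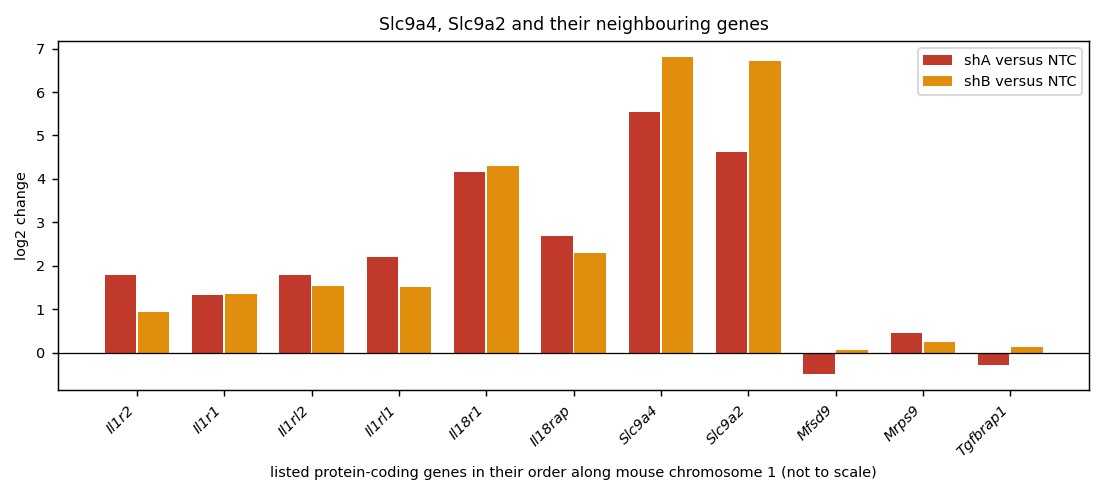
log2 change (vertical axis) of Slc9a4, Slc9a2 and their listed neighbours in gene order along the chromosome (horizontal axis, not to scale), for shA versus NTC and shB versus NTC. Slc9a4 and Slc9a2 stand highest, the 6 receptor genes on the left are all above 0, and the 3 genes on the right lie between -0.50 and 0.44.

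Markers of several other cell types also differed between the knockdown and NTC tumours. Slc9a4 and Slc9a2 averaged higher in shB than in shA tumours. So did the fibroblast, mast cell and eosinophil, skeletal muscle and intestinal epithelial sums. The T cell, macrophage, natural killer cell, endothelial, red blood cell and gastric epithelial sums averaged higher in shA. These differences in sums were not tested. The counts of called markers for both shRNAs against NTC stand beside 15.5% higher and 9.49% lower among all genes tested. All 12 T cell markers were higher for both shRNAs against NTC, with sums of 2356 to 6701 normalized reads in shA, 1853 to 2154 in shB and 350.4 to 675 in NTC libraries, none of the 12 being at 0 in any library. All 10 macrophage markers were higher, with sums of 33765 to 36719 in shA, 21999 to 28635 in shB and 2673 to 5843 in NTC libraries, again with none at 0. Of 7 tested mast cell and eosinophil markers 4 were higher, with sums of 1870 to 3103 in shA, 2467 to 2954 in shB and 406 to 789 in NTC libraries, and Ccr3 at 0 in 1 NTC library; 2 were called without NTC replicate 1 and 7 without shA replicate 1. Of 3 tested natural killer cell markers 2 were higher, and the 6 listed ones summed to 498 to 594 in shA, 344 to 410 in shB and 60.8 to 122 in NTC libraries, with Klrb1c and Klra8 each at 0 in 1 NTC library. Of 8 fibroblast markers 5 were higher and 1 lower, with sums of 13136 to 23693 in shA, 14818 to 34252 in shB and 7519 to 12270 in NTC libraries, with 3 called in all without NTC replicate 1. Of 7 endothelial markers 0 passed by limma, with 1 at an unadjusted p under 0.05, against 0 by edgeR and 1 by DESeq2. Of 5 red blood cell genes 4 were lower, with sums of 516 to 2526 in shA, 176 to 1455 in shB and 3402 to 61042 normalized reads in NTC libraries, none at 0, and 0 were called without NTC replicate 1, the highest of them. Of 7 skeletal muscle genes 0 passed by limma, with 2 at an unadjusted p under 0.05, 1 called by edgeR and 3 by DESeq2, and 4 by limma without shB replicate 2. Their median log2 difference was 4.18, with sums of 100.2 to 1959 in shA, 89.4 to 9547 in shB and 89.2 to 279 in NTC libraries, and Acta1, Myh4 and Myh1 each at 0 in 2 NTC libraries and in at least 1 knockdown library, and Atp2a1 at 0 in 1 NTC library. Against NTC, 0 of the 5 red blood cell genes were called for shA alone and 3, all lower, for shB alone. The mast cell and eosinophil calls were 4 for shA and 2 for shB, and the T cell calls 12 and 11, all higher. Of the fibroblast markers 4 were higher for shA, and 5 were higher and 1 lower for shB. The part of these cell types in the results was not tested, and in bulk tumours fewer cells of a type and less RNA per cell cannot be told apart. Of the gastric epithelial markers, 3 of 9 were listed and 0 of 2 tested passed, with sums of 130 to 179 in shA, 74.9 to 214 in shB and 149 to 174 normalized reads in NTC libraries, and Tff2 at 0 in 1 shA library.

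Genes with the profile most like Slc9a4 and Slc9a2 over the 9 libraries were ranked by the root mean square difference of centred log2 values among 13340 genes, a description because these genes were chosen on the same libraries. For Slc9a2 they were Slc27a2 at 0.68, H60c at 0.74, Tmem45b at 0.84, Dpyd at 0.87 and Asgr1 at 0.88. Slc27a2 is a fatty acid transport and activation protein, H60c a ligand of the receptor NKG2D, Dpyd the enzyme that starts pyrimidine breakdown and Asgr1 a chain of the asialoglycoprotein receptor of liver. For Slc9a4 they were C1qtnf3 at 0.91, Slc9a2 itself at 0.95, Stap1 at 0.96, the potassium channel gene Kcnc1 at 0.97 and Tmem45b at 0.98. Slc9a4 stood at rank 9 for Slc9a2. Slc27a2 had 37.0, 64.5 and 180 normalized reads in shA, 131, 391 and 327 in shB, and 1.13, 18.1 and 10.6 in NTC replicates 1 to 3, with its highest libraries the same as those of Slc9a2.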

How the data were processed

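RNA-seq of 9 MC38 tumours was analysed from 1 deposited table per library. The deposited values are a signal, reads per gene divided by 1 factor per library; the authors' file headers name only the gene and the value. This was read from the values, 100% of which were whole multiples of the library's smallest positive value, within 0.001. The factors matched size factors computed by the median of ratios. Cuffdiff 2.2.1 and mm9 were used per the submitters' processing notes, with no role stated. The sources used here name no aligner, counting tool or annotation. Exon lengths, gene order and coding sequences came from a GRCm38 annotation, so no coordinates are given.

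Genes with at least 20 normalized reads in at least 3 libraries (14600 of 17134) were tested with limma 3.58.1 in R 4.3.3, on log2(value + 0.5), using a mean-dependent (trended) empirical Bayes prior and p-values adjusted by Benjamini-Hochberg. A single fit of 3 groups gave 4 comparisons; both shRNAs means the average of shA and shB. Fold changes of low genes depend on the added 0.5. Recovered reads also went into edgeR 4.0.16 and DESeq2 1.42.0. The fit was also run on simulated data in which far fewer genes changed than were called here. That run therefore does not show how the fit performs on these libraries. All 8 family genes passed the filter. Libraries of a group differed by more than counting error.

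The family genes and the lists were chosen with earlier results of these data known. Named genes were the family, Gad1, up to 4 genes of each pathway list with the smallest p, the listed neighbours among the 6 nearest on each side, and the 5 genes most like Slc9a4 and Slc9a2, predicted genes left out. Some other exchangers are not reported here. Replicate numbers are shared between groups, but same-numbered libraries did not deviate together.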

Additional observations from a re-analysis of the deposited data

How the results depend on the processing

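The alternatives covered pseudocount, filter, scaling, prior, which groups were fitted, a replicate block and each library left out; edgeR, DESeq2 and the removal of all first replicates were chosen after seeing the data. The falls of Slc9a5 for both shRNAs and for shB, and of Slc9a3r1 for shB, passed under every alternative run. Called genes numbered 2005 to 5498 for both shRNAs, 1268 to 3992 for shA, 1835 to 4237 for shB and 0 to 1 for shA versus shB when single libraries were left out; the lowest counts against NTC came without NTC replicate 1 and the highest without shB replicate 1. Called family genes, Slc9a4 and Slc9a2 aside, were 1 to 2, 0 to 1, 2 and 0 in the same order. Without the first replicate of each group, 6361, 3930, 6526 and 13 genes were called, with 2 family genes in shA. DESeq2 called 24 genes for shA versus shB and 2 family genes for shA. For both shRNAs 1 family gene was called without the trend and with the replicate block, and 1 for shA when only the compared groups were fitted. Same-numbered libraries did not deviate together (correlations of deviations -0.34 to 0.06, 0 of 9 over 0.1). With 3 libraries in each group this cannot show whether tumours were paired. With the replicate block 2921, 1778, 2376 and 0 genes were called. A pseudocount of 5 lowered the Slc9a2 and Slc9a4 differences for both shRNAs to 3.84 and 4.14, with the same direction. Signs turned only for values that had not passed the test. Without all first replicates, Slc9a3r2 was at -0.29 for shA, 0.18 for shB and -0.47 for shA versus shB, while Slc9a7 and Slc9a8 were at 0.037 and -0.089 for shB. With single libraries left out, Slc9a3r2 ranged from -0.305 to 0.043 for both shRNAs, -0.40 to 0.27 for shA, -0.35 to 0.074 for shB and -0.19 to 0.48 for shA versus shB; Slc9a8 ranged from -0.21 to 0.021 for both and -0.084 to 0.14 for shB. The cause of these changes was not tested. The 5 and 6 control reads of Slc9a4 and Slc9a2 limit how well their ratios are known.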
